A study of Mus musculus with 16 samples.

Results

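Spp1, Trem2, Gpnmb, Apoe, Fabp5, Cd9, Cd63, Lgals3 and Lpl are genes by which lipid-handling macrophages of injured and scarring lung are recognised. They were taken by their gene symbols, with every array spot annotated to them, which gave 19 spots for the 9 genes among 62976 spots and 20863 named genes. Apoe had 10 spots, Lpl had 2 and each of the other 7 genes had 1. The study gave mice a CAV1 target site blocker, which is a short nucleic acid made to mask the place in Cav1 mRNA where a microRNA pairs, and asked how it acted on lung fibrosis caused by bleomycin, a drug that injures the lung.

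Whole lungs of C57BL/6 mice aged 9 to 12 weeks were profiled on single-colour arrays, 1 array per sample, in 4 groups. There were 6 arrays of lungs given bleomycin at 1 unit/kg and the CAV1 blocker at 5 mg/kg, and 6 of lungs given bleomycin at the same dose and the control blocker, whose dose was not stated. Phosphate-buffered saline (PBS) in place of bleomycin was given with the CAV1 blocker in 2 arrays and with the control blocker in 2 arrays. All mice therefore received a blocker by the trachea, at 4 and at 2 days ahead of bleomycin or PBS and again 4 days later. The time of lung collection was not given in the sources used here. Because the labels do not state that each sample was a separate animal, the p-values rest on sample-to-sample spread that may be technical.

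Macrophages that enter an injured lung take up dead cells, surfactant and lipoproteins, and pass the lipid on for storage, breakdown or export. TREM2 is a surface receptor that binds lipids and lipoproteins and signals through the adaptor TYROBP. Osteopontin, the product of Spp1, is a secreted protein that binds integrins and CD44, and macrophages that make it are known from fibrotic lung.

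Start-site sequences of Spp1, Trem2 and Gpnmb are shown because these genes had the largest bleomycin differences of the 9 and their arrays moved together. The RefSeq table (mouse assembly GRCm38.p6) held windows for 7 of the 9 genes, and Fabp5 and Lpl were not among them. Each sequence runs 5′ to 3′ on the + strand, from 150 bases before the start to the first 20 bases of the gene. Capitals mark matches, on either strand, to GAGGAA, the core bound by PU.1, and to TGANTCA. The latter is a loose pattern that takes in the site bound by AP-1, which has C or G at N.
Spp1, chr5:104434961-104435130: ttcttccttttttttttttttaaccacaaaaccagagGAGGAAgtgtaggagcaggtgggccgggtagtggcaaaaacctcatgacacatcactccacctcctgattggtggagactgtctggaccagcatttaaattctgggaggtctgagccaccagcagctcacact
Trem2, chr17:48346251-48346420: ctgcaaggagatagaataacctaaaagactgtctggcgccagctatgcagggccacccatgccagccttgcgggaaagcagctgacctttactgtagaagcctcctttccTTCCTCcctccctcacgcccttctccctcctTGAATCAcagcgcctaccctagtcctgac
Gpnmb, chr6:49036368-49036537: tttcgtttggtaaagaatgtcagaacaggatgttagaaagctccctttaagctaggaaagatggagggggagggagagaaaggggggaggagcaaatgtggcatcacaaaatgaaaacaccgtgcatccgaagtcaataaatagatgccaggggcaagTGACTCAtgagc

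The GAGGAA match lies at position -113 from the start of Spp1 and at position -40 from that of Trem2. The TGANTCA match lies at position -9 of Trem2 and position 9 of Gpnmb. It reads TGAATCA in Trem2, outside the narrower AP-1 form, and TGACTCA in Gpnmb, within it. In the full windows of 250 bases before and 50 bases after the start, TGANTCA occurred in 2 of the 10 windows of these genes (some genes have several starts), against 7.81% of the 32851 windows in the table. GAGGAA occurred in 5 of the 10 windows, against 28.28% of all windows. TCACGTG, the site bound by MITF and TFE factors, occurred in 0 of the 10, against 3.77% of all. A match describes the letters of a window and is not evidence of binding.

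The 16 arrays had nearly the same distribution of deposited log2 intensities, with a median of 6.51 to 6.52 and an equal maximum, and correlated at 0.970 to 0.998 over genes. The 9 genes lay high in these distributions, the lowest value at the 77.1th percentile of its array and the highest at the 99.9th. Lungs also differed in tissue content: the mean of 12 squamous epithelium markers was 10.80 to 11.86 in 11 arrays and 7.81 to 7.9998 in 5, and that of 12 skeletal muscle markers was 9.99 to 12.51 in those 11 and 6.91 to 8.25 in those 5. Low in both were bleomycin CAV1 blocker array 3, bleomycin control blocker arrays 2 and 6 and both PBS CAV1 blocker arrays. Alveolar type 2 markers lay between 15.21 and 15.74 in every array, so the defining markers of the labelled tissue were present. In bulk tissue, fewer cells of a type and less RNA per cell cannot be told apart.

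The comparison of bleomycin with PBS, averaged over both blockers, asks which of the 9 genes differed in the injured lung. Of the 9, 7 rose and 0 fell (limma, Benjamini-Hochberg adjusted p under 0.05 over 20304 genes tested), while 5.93% of all genes were called in either direction, 4.25% were called higher and 1.68% lower. Spp1 rose 7.26-fold, Trem2 4.15-fold and Gpnmb 3.40-fold. Apoe rose 1.93-fold, and Cd63, Lgals3 and Fabp5 rose by 1.39-fold or less. Cd9 and Lpl did not pass the test. The median difference of the 9 genes was 0.48 on the log2 scale, and that of all genes tested was 0.01. Because the 9 genes were chosen with earlier results of these data known, their share and median are not an independent test.

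**Figure D1:**
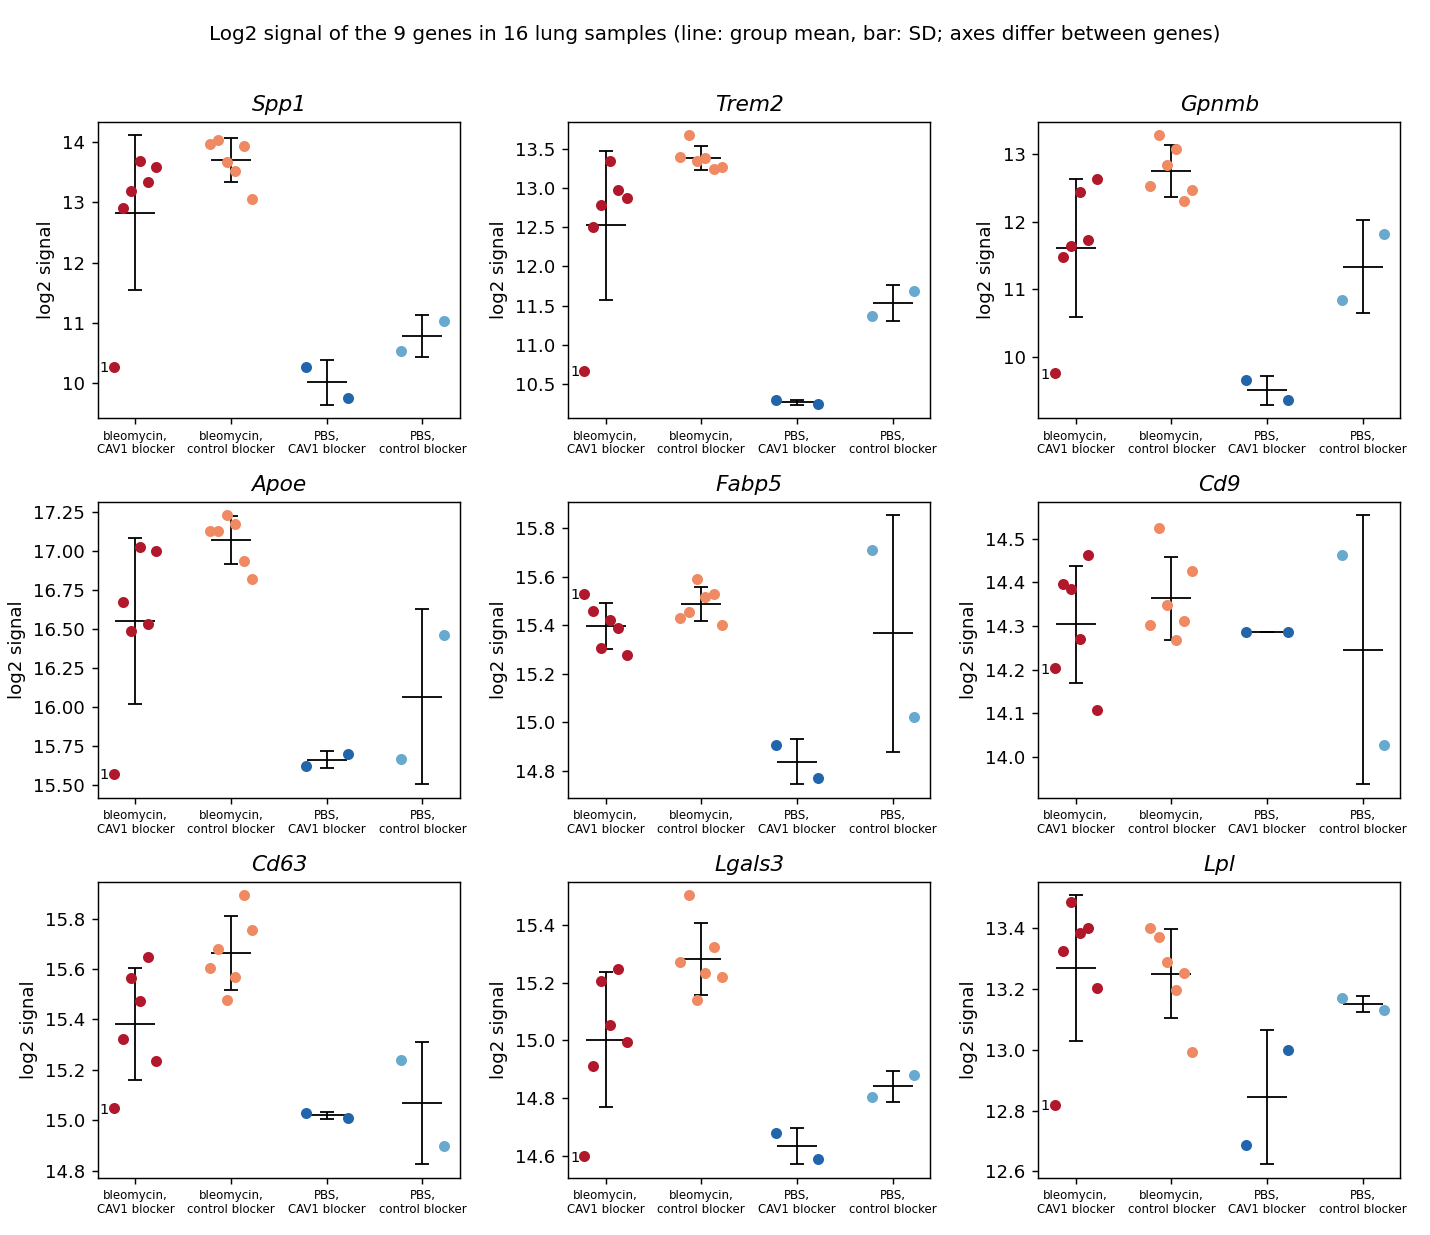
Log2 signal (vertical axis, its range set for each gene) of the 9 genes in the 16 arrays, by group; points are arrays, lines are group means and bars are the SD. Spp1 lay at 12.90 or higher in 11 of the 12 bleomycin arrays and at 11.03 or lower in the 4 PBS arrays; the point marked 1 is bleomycin CAV1 blocker array 1, where Spp1 was 10.28.

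Spp1 had log2 signals of 10.28, 12.90, 13.19, 13.67, 13.33 and 13.58 in bleomycin CAV1 blocker arrays 1 to 6. It had 13.96, 14.04, 13.67, 13.52, 13.92 and 13.06 in bleomycin control blocker arrays 1 to 6. In the PBS arrays it had 10.27 and 9.76 with the CAV1 blocker and 10.54 and 11.03 with the control blocker. Under each blocker every bleomycin array lay above both PBS arrays, by only a small margin in bleomycin CAV1 blocker array 1, which also lay below both PBS control blocker arrays. The averaged difference was 2.86 (SE 0.450, 95% interval 1.90 to 3.82, adjusted p = 0.0026). Spp1 ranked 1 among the 20304 genes by the size of this rise.

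Trem2, the lipid receptor, had 10.67, 12.51, 12.78, 13.34, 12.98 and 12.87 in bleomycin CAV1 blocker arrays and 13.40, 13.67, 13.35, 13.38, 13.24 and 13.26 in bleomycin control blocker arrays. It had 10.29 and 10.25 in PBS CAV1 blocker arrays and 11.37 and 11.69 in PBS control blocker arrays. The bleomycin arrays lay above the PBS arrays of the same blocker in all cases. Averaged over both blockers, the difference was 2.05 (SE 0.324, 95% interval 1.36 to 2.74, adjusted p = 0.0026), and Trem2 ranked 9 by size. Spp1 and Trem2 were called whichever of the 16 arrays was left out, with a highest adjusted p of 0.0199 for Spp1 and 0.0204 for Trem2.

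Gpnmb encodes a membrane glycoprotein of late endosomes and lysosomes. Its log2 signals were 9.75, 11.47, 11.63, 12.44, 11.73 and 12.63 in bleomycin CAV1 blocker arrays and 12.53, 13.28, 12.84, 13.08, 12.31 and 12.47 in bleomycin control blocker arrays. They were 9.65 and 9.35 in PBS CAV1 blocker arrays, and 10.84 and 11.82 in PBS control blocker arrays. The PBS groups did not overlap, and 4 of the 6 bleomycin CAV1 blocker arrays lay below PBS control blocker array 2. The averaged difference was 1.76 (SE 0.380, 95% interval 0.95 to 2.57, adjusted p = 0.0126), rank 18 by size. The call ended without PBS CAV1 blocker array 1 (adjusted p = 0.0595) or array 2 (0.0651).

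Apoe encodes apolipoprotein E, a lipoprotein component that takes up cholesterol leaving the cell. It had 15.57, 16.68, 16.49, 17.03, 16.53 and 17.00 in bleomycin CAV1 blocker arrays and 17.13, 17.13, 17.23, 17.18, 16.94 and 16.82 in bleomycin control blocker arrays. It had 15.62 and 15.70 in PBS CAV1 blocker arrays and 15.67 and 16.46 in PBS control blocker arrays. Bleomycin CAV1 blocker array 1 was the lowest of all 16 arrays, and the other 11 bleomycin arrays lay above every PBS array. Apoe differed by 0.95 over both blockers (SE 0.206, 95% interval 0.51 to 1.39, adjusted p = 0.0131), and in its 10 spots the difference ranged from 0.95 to 1.07, all 10 called. The call of Apoe ended without PBS CAV1 blocker array 1 (adjusted p = 0.0793) or 2 (0.0543) and without PBS control blocker array 1 (0.0518).

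Cd63 encodes a tetraspanin of late endosomes and lysosomes, and Cd9 a tetraspanin of the cell surface. Cd63 had 15.05, 15.32, 15.57, 15.47, 15.65 and 15.23 in bleomycin CAV1 blocker arrays and 15.60, 15.68, 15.48, 15.57, 15.89 and 15.76 in bleomycin control blocker arrays. It had 15.03 and 15.01 in PBS CAV1 blocker arrays and 15.24 and 14.90 in PBS control blocker arrays, so that bleomycin and PBS did not overlap under either blocker. The averaged difference was 0.48 (SE 0.104, adjusted p = 0.0129), and it was no longer called without PBS CAV1 blocker array 1 (adjusted p = 0.0697) or 2 (0.0588) or PBS control blocker array 2 (0.0636). Cd9 lay between 14.03 and 14.52 in all 16 arrays, with means of 14.30 ± 0.13 and 14.36 ± 0.10 in the bleomycin CAV1 and bleomycin control blocker groups (SD, n = 6 each). The 2 PBS CAV1 blocker arrays both had 14.29, and the PBS control blocker arrays had 14.46 and 14.03. Its averaged difference was 0.07 (95% interval -0.11 to 0.24, adjusted p = 0.773), the smallest of the 9 genes.

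Lgals3 encodes galectin-3, a lectin that binds galactosides outside the cell and gathers on damaged lysosomes inside it. It had 14.60, 14.91, 15.21, 15.05, 15.25 and 14.995 in bleomycin CAV1 blocker arrays and 15.27, 15.50, 15.14, 15.23, 15.32 and 15.22 in bleomycin control blocker arrays. It had 14.68 and 14.59 in PBS CAV1 blocker arrays and 14.80 and 14.88 in PBS control blocker arrays. Under the control blocker the groups did not overlap, and under the CAV1 blocker array 1 of the bleomycin group lay between the 2 PBS arrays. Over both blockers the difference was 0.40 (SE 0.098, 95% interval 0.20 to 0.61, adjusted p = 0.0234), and it was lost without PBS CAV1 blocker array 1 (adjusted p = 0.0895) or 2 (0.108) or PBS control blocker array 1 (0.0519).

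Fabp5, a carrier of fatty acids in the cytosol of macrophages and keratinocytes, followed another order. It had 15.53, 15.46, 15.31, 15.42, 15.39 and 15.28 in bleomycin CAV1 blocker arrays, and 15.43, 15.46, 15.59, 15.52, 15.53 and 15.40 in bleomycin control blocker arrays. It had 14.90 and 14.77 in PBS CAV1 blocker arrays and 15.71 and 15.02 in PBS control blocker arrays. The highest and the lowest of all 16 arrays were thus PBS arrays, and array 1 of the bleomycin CAV1 blocker group was the highest of its group. The averaged difference was 0.34 (SE 0.093, 95% interval 0.14 to 0.54, adjusted p = 0.0426).

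The call of Fabp5 ended when any of 12 of the 16 arrays was left out: bleomycin CAV1 blocker arrays 2 to 5, bleomycin control blocker arrays 1 to 5, both PBS CAV1 blocker arrays and PBS control blocker array 2, with adjusted p up to 0.181. Both PBS CAV1 blocker arrays, the lowest for Fabp5, were among the 5 arrays low in squamous and muscle markers. In the bleomycin arrays low in these markers, Fabp5 was 15.31 in CAV1 blocker array 3, in a group range of 15.28 to 15.53. It was 15.46 and 15.40 in control blocker arrays 2 and 6, in a range of 15.40 to 15.59, and array 6 was the lowest of that group. Each lay above both PBS CAV1 blocker arrays, which also differed from them in injury. With group means removed, Fabp5 correlated at 0.36 with the squamous and at 0.58 with the muscle marker mean. The squamous marker means were 7.99 to 11.86 and 7.84 to 11.38 in the bleomycin CAV1 and bleomycin control blocker groups, 7.81 and 7.83 in the PBS CAV1 blocker group and 11.55 and 10.80 in the PBS control blocker group, and 0 of the 12 markers were called in this comparison. With the squamous marker mean as a covariate the difference of Fabp5 was 0.30 (adjusted p = 0.0951), and with the muscle marker mean 0.30 (0.0529). The part of tissue content in the Fabp5 difference was not tested, and among the PBS arrays it cannot be told apart from the blocker.

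Lpl encodes lipoprotein lipase, which releases fatty acids from lipoproteins and is also made by adipocytes and muscle. It had 12.82, 13.33, 13.48, 13.38, 13.40 and 13.20 in bleomycin CAV1 blocker arrays and 13.40, 13.37, 13.29, 13.20, 13.25 and 12.99 in bleomycin control blocker arrays. It had 12.69 and 12.999 in PBS CAV1 blocker arrays and 13.17 and 13.13 in PBS control blocker arrays. Bleomycin and PBS arrays overlapped under both blockers, and the averaged difference of 0.26 (95% interval 0.04 to 0.49) did not pass (adjusted p = 0.197). Its other spot differed by 0.21 and did not pass either.

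Under each blocker alone the comparison rests on 2 PBS arrays and shares its arrays with the averaged one. Under the CAV1 blocker Trem2 was the 1 gene of the 9 called (2.25, SE 0.458, adjusted p = 0.0432), where 0.517% of all genes were called in either direction and 0.345% were called higher. Spp1 differed by 2.81 (adjusted p = 0.0575), Gpnmb by 2.11 (0.0846) and Fabp5 by 0.56 (0.0638). Under the control blocker Spp1 (2.91, SE 0.637, adjusted p = 0.0302), Trem2 (1.85, SE 0.458, 0.0469) and Cd63 (0.60, SE 0.147, 0.0469) were called, 3 of 9, where 2.41% of all genes were called and 1.96% were called higher. Gpnmb differed by 1.42 (adjusted p = 0.202) and Apoe by 1.01 (0.0895).

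Bleomycin arrays lay wholly above the PBS arrays in 5 of 9 genes under the CAV1 blocker, against 8.38% of all genes, and in 6 of 9 under the control blocker, against 8.55%. These calls were sensitive to single arrays. Without bleomycin CAV1 blocker array 1, 7 of the 9 genes were called under the CAV1 blocker, where 3.54% of all genes were, and 6 under the control blocker, where 3.41% were. Spp1 under the control blocker was not called without bleomycin control blocker array 1, 2 or 5 or PBS control blocker array 2 (highest adjusted p = 0.157). Trem2 under the control blocker was called in 2 of the 16 cases, without bleomycin CAV1 blocker array 1 or 4 (adjusted p up to 0.218 in the others), and Cd63 in 4, without bleomycin CAV1 blocker array 1, 5 or 6 or PBS control blocker array 1 (up to 0.430 in the others). Trem2 under the CAV1 blocker was called in 3, without bleomycin CAV1 blocker array 1 or either PBS control blocker array (up to 0.346 in the others). With the squamous covariate, Spp1 under the control blocker came to an adjusted p of 0.0516, Trem2 to 0.0774 and Cd63 to 0.0780, and without the 5 arrays low in muscle and squamous transcripts to 0.136, 0.210 and 0.207. The differences themselves moved little there (2.98, 1.81 and 0.57). Trem2 under the CAV1 blocker came to 2.60 (adjusted p = 0.137) with the squamous covariate, where 8 genes in all were called.

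**Figure D2:**
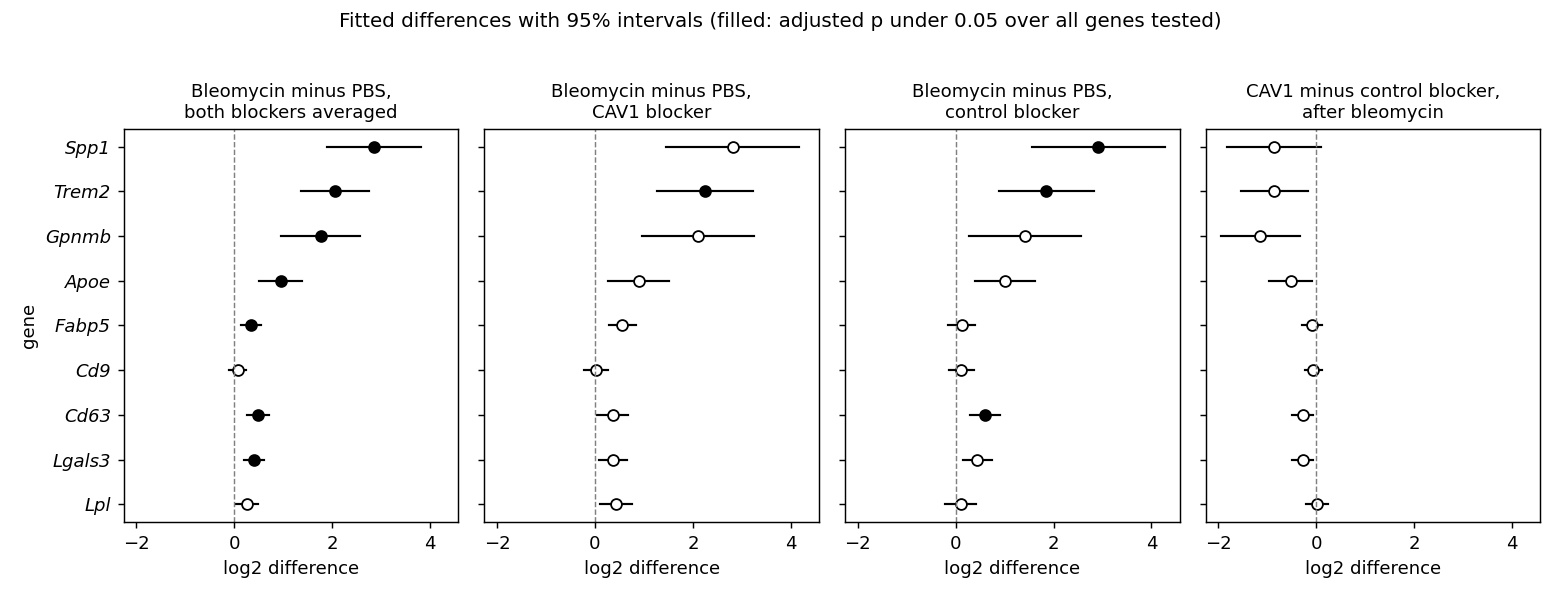
Fitted log2 differences of the 9 genes in 4 comparisons (horizontal axis), with 95% intervals; filled points passed an adjusted p under 0.05 over all genes tested. Averaged over both blockers, Spp1 differed by 2.86 and Cd9 by 0.07 between bleomycin and PBS, and after bleomycin 0 of the 9 genes passed between the blockers.

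The comparison of the CAV1 blocker with the control blocker after bleomycin asks whether the blocker moved these genes in injured lung. Of the 9 genes, 0 were called by limma, where 1.61% of all genes were, 1.2% higher and 0.414% lower. The difference was negative for 8 genes and positive for 1, where 45.6% of all genes tested had a positive difference. The median of the 9 was -0.28, and the median of all genes tested was -0.01.

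Gpnmb averaged 11.61 ± 1.02 with the CAV1 blocker and 12.75 ± 0.38 with the control blocker after bleomycin (SD, n = 6 each). The difference was -1.14 (SE 0.380, 95% interval -1.95 to -0.33, adjusted p = 0.240), and by signed size it ranked 20302 of the 20304 genes. Spp1 averaged 12.82 ± 1.28 and 13.69 ± 0.37, with a difference of -0.87 (95% interval -1.83 to 0.09, adjusted p = 0.645). Both genes overlapped between the groups: 4 of 6 CAV1 blocker arrays for Gpnmb and 2 of 6 for Spp1 lay below every control blocker array.

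Trem2 averaged 12.52 ± 0.95 and 13.38 ± 0.15, with 5 of 6 CAV1 blocker arrays below every control blocker array and a difference of -0.86 (95% interval -1.55 to -0.17, adjusted p = 0.350). Apoe differed by -0.52 (95% interval -0.96 to -0.08, adjusted p = 0.402), Cd63 by -0.28 (-0.50 to -0.06, 0.329) and Lgals3 by -0.28 (-0.49 to -0.07, 0.280). For each of these genes 4 of 6 CAV1 blocker arrays lay below every control blocker array. The intervals of Fabp5 (-0.29 to 0.11), Cd9 (-0.23 to 0.11) and Lpl (-0.21 to 0.25) held 0. The groups were separate for 0 of the 9 genes, against 0.832% of all genes that lay wholly lower with the CAV1 blocker.

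Bleomycin CAV1 blocker array 1 stood apart. It lay at or below the highest PBS array in 9 of the 9 genes, against 1 to 3 of the 9 in each of the other 11 bleomycin arrays. Its label gives the same bleomycin dose as the rest of its group, and whether the dose reached that lung in full cannot be told from the data used here, so the blocker differences are also given without it. It was the lowest of its group in 7 of the 9 genes and lay 2.55 below its group mean for Spp1, 1.86 for Trem2 and 1.86 for Gpnmb. These counts were not made over all genes, and the 9 genes share the RNA of each array, so they are not separate observations. In the same array the mean of 8 recruited macrophage markers was 10.43, against 11.11 to 11.42 in the other 5 arrays of its group, 11.46 to 11.74 in bleomycin control blocker arrays and 10.17 to 10.56 in PBS arrays. The mean of 6 neutrophil markers was 12.62 there, the highest of the 16 arrays, and 11.10 to 12.00 in the others. The part of these cell types in the result was not tested.

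Without this array the blocker difference after bleomycin was -0.36 for Spp1 (adjusted p = 0.762), -0.49 for Trem2 (0.0944), -0.77 for Gpnmb (0.267) and -0.33 for Apoe (0.580). Again 0 of the 9 genes were called by limma. The spread fell as well: the SE of Trem2 was 0.126 without the array and 0.324 with it. In the averaged bleomycin comparison 8 of 9 genes were called without it, where 7.84% of all genes were, Lpl being added (0.31, adjusted p = 0.0310).

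**Figure D3:**
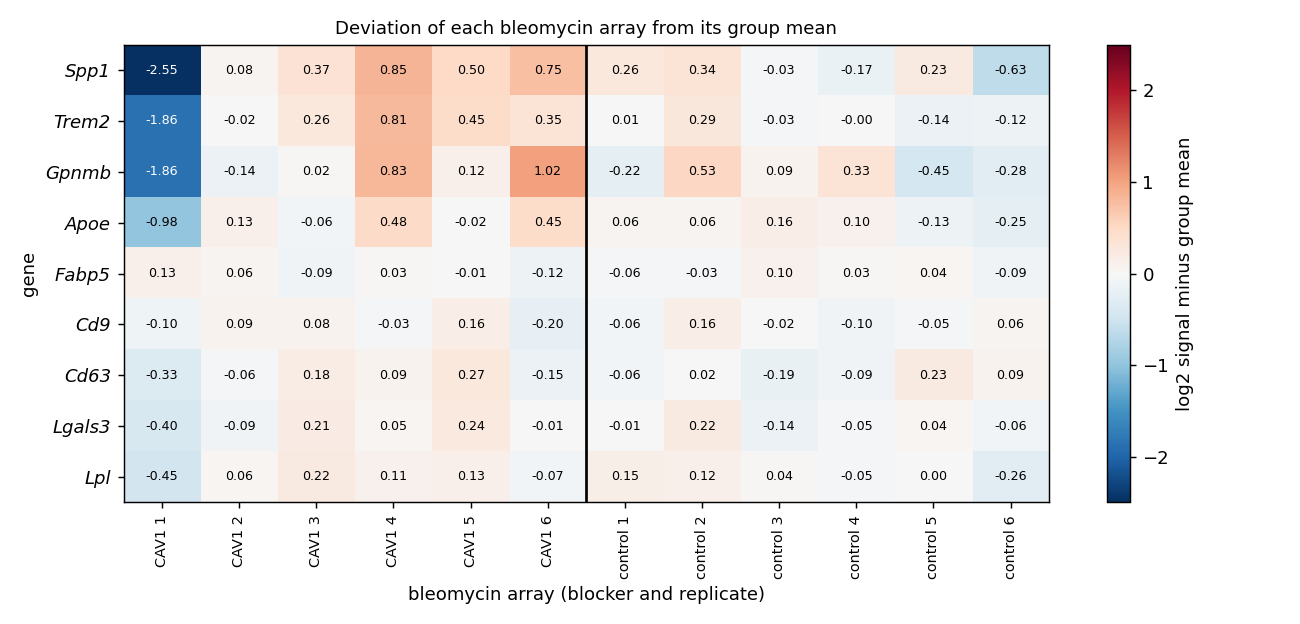
Deviation of each of the 12 bleomycin arrays (columns, CAV1 blocker left of control blocker) from its group mean, in log2 signal, for the 9 genes (rows). Array 1 of the CAV1 blocker group lay 2.55 below its group mean for Spp1 and 0.13 above it for Fabp5.

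After PBS, 0 of the 9 genes were called between the CAV1 and the control blocker by limma, where 0.31% of all genes were, 0.276% higher and 0.0345% lower. Each group held 2 arrays. Gpnmb had 9.65 and 9.35 with the CAV1 blocker and 10.84 and 11.82 with the control blocker, a difference of -1.83 (95% interval -3.23 to -0.43, adjusted p = 0.352). Trem2 differed by -1.26 (95% interval -2.45 to -0.06, adjusted p = 0.386) and Fabp5 by -0.53 (-0.87 to -0.19, 0.261). In 6 of the 9 genes both CAV1 blocker arrays lay below both control blocker arrays, against 14.7% of all genes. Squamous and muscle transcripts were low in the 2 PBS CAV1 blocker arrays and in neither PBS control blocker array, so that tissue content and blocker cannot be told apart there. Trem2 passed without bleomycin CAV1 blocker array 1 (adjusted p = 0.0193), where 0.281% of all genes were called. Without PBS control blocker array 2, Fabp5 came to -0.87, set against PBS control blocker array 1 alone, which at 15.71 was the highest of all 16 arrays.

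The interaction, the bleomycin difference under the CAV1 blocker minus that under the control blocker, was called for 0 of the 9 genes and for 0% of all genes by limma. Fabp5 had an interaction of 0.44 (95% interval 0.04 to 0.83, adjusted p = 0.497). Without PBS control blocker array 2 the Fabp5 interaction came to 0.78, with array 1 alone left in that group. The intervals of Gpnmb (-0.93 to 2.31), Spp1 (-2.02 to 1.82) and Trem2 (-0.98 to 1.78) held differences in both directions.

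The markers of recruited macrophages, of which 8 of 10 were measured and tested, followed Spp1, Trem2, Gpnmb and Apoe. In the averaged bleomycin comparison 7 of the 8 rose, with Ms4a7 at 1.65 and the complement genes C1qa at 1.47 and C1qb at 1.46. Their mean was 10.43 to 11.42 and 11.46 to 11.74 in the bleomycin CAV1 and control blocker groups, against 10.17 to 10.29 and 10.44 to 10.56 in the PBS CAV1 and control blocker groups. Ms4a7 was also called lower with the CAV1 blocker after bleomycin (-1.05, adjusted p = 0.0236). Of 10 resident alveolar macrophage markers, 3 fell with bleomycin and 0 rose: Krt79 (-1.42), the scavenger receptor Marco (-0.67) and Ear2 (-0.51). Of 7 dendritic cell markers, 2 rose, Flt3 (0.54) and Batf3 (0.50), and of 6 neutrophil markers 1 fell, Retnlg (-0.71). Alveolar type 1 and 2, squamous, skeletal and cardiac muscle, adipocyte and chondrocyte markers had 0 called genes here by limma, with 2, 0, 0, 0, 3, 5 and 3 at an unadjusted p under 0.05. Fibroblast markers had 3 risen (Col1a1, Col1a2, Col3a1) and 2 fallen (Pdgfra, Inmt) of 8, and endothelial markers 1 fallen, Kdr, of 7. Whether these cell types accounted for any part of the members' differences was not tested.

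With group means removed, the correlation of the recruited macrophage marker mean over the 16 arrays was 0.93 with Spp1, 0.92 with Trem2, 0.87 with Gpnmb and 0.90 with Apoe. It was 0.71 with Lpl, 0.62 with Lgals3, 0.38 with Cd63, -0.08 with Cd9 and -0.30 with Fabp5. With neutrophil markers Apoe correlated at -0.94, Gpnmb at -0.91, Spp1 at -0.80, Trem2 at -0.79, Lpl at -0.55 and Lgals3 at -0.44, and Cd63 at 0.04, Cd9 at 0.18 and Fabp5 at 0.42. Without bleomycin CAV1 blocker array 1, an alternative chosen after seeing the data, the correlations with recruited macrophage markers were 0.60 for Spp1, 0.52 for Trem2, 0.58 for Gpnmb and 0.72 for Apoe, and -0.66 for Cd9, -0.36 for Cd63, -0.17 for Fabp5, -0.14 for Lgals3 and 0.15 for Lpl. Those with neutrophil markers were -0.86 for Apoe, -0.80 for Gpnmb, -0.48 for Spp1, -0.45 for Trem2 and -0.036 for Lpl, and 0.20 for Lgals3, 0.35 for Fabp5, 0.53 for Cd9 and 0.79 for Cd63. All values on 1 array share its RNA and its normalization.

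**Figure D4:**
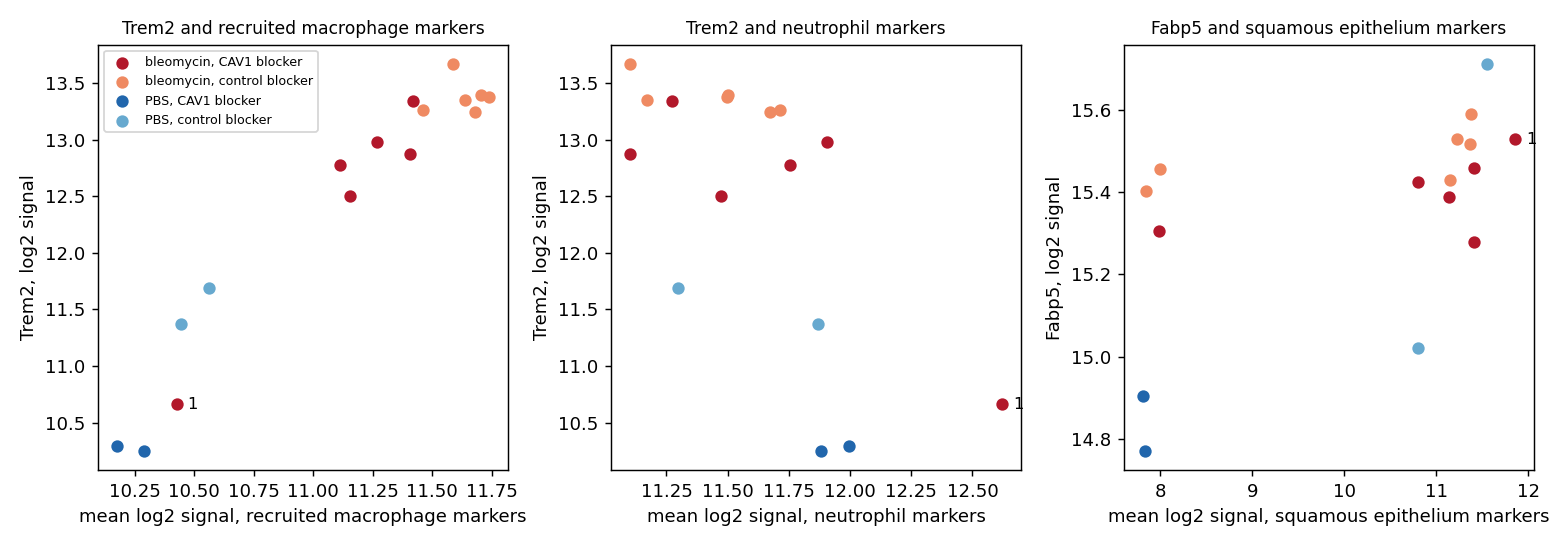
Log2 signal of Trem2 against the mean log2 signal of recruited macrophage markers (left) and of neutrophil markers (middle), and log2 signal of Fabp5 against the mean of squamous epithelium markers (right), 1 point per array. The array marked 1 had 10.67 for Trem2 with 10.43 for recruited macrophage and 12.62 for neutrophil markers.

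Among themselves, with group means removed, Spp1 and Trem2 correlated at 0.96, Gpnmb and Apoe at 0.93 and Trem2 and Gpnmb at 0.90. Cd63 and Lgals3 correlated at 0.71 and the tetraspanins Cd9 and Cd63 at 0.64. Fabp5 ran against Apoe (-0.53) and Gpnmb (-0.46) and with Cd9 (0.53). Of the 36 pairs, 28 were positive, with a median of 0.51, against 0.01 over all pairs of genes tested. These values leaned on 1 array: without bleomycin CAV1 blocker array 1 the median was 0.13 and 21 pairs were positive. Without it Gpnmb with Apoe came to 0.82, Trem2 with Gpnmb to 0.72, Spp1 with Trem2 to 0.68, Cd9 with Cd63 to 0.63 and Cd63 with Lgals3 to 0.53. Apoe came to -0.77 with Cd63, against 0.06 over all arrays, and to -0.79 with Cd9, against -0.29.

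**Figure D5:**
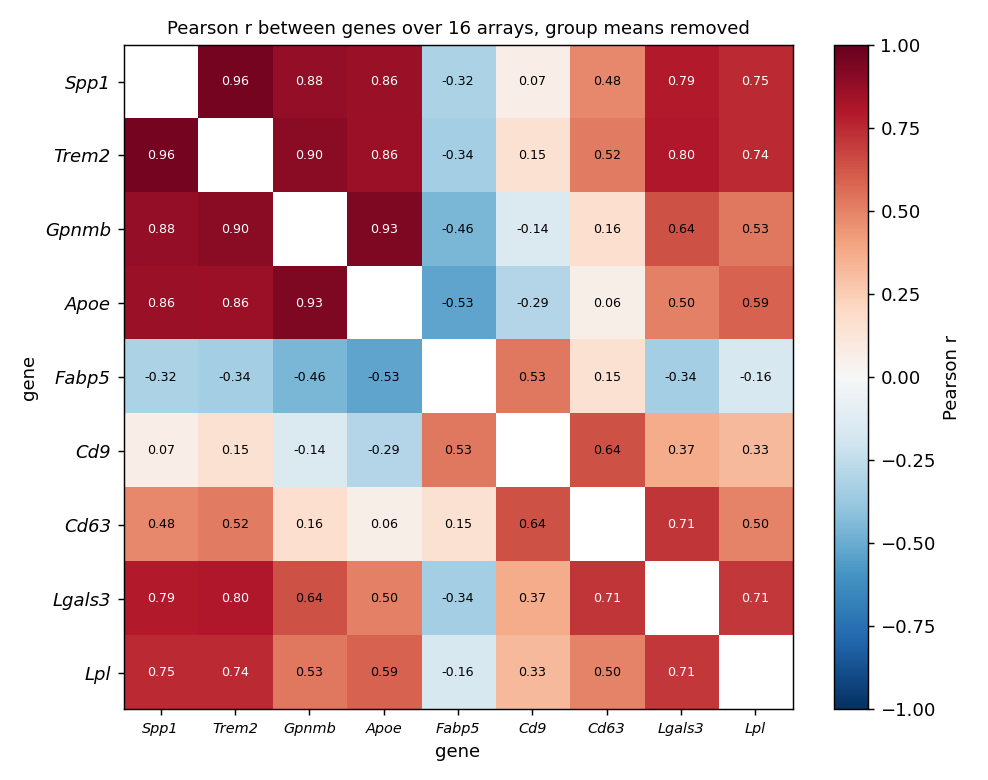
Pearson correlation of log2 signal between the 9 genes over 16 arrays after the group means were removed (colour and number in each cell). Spp1, Trem2, Gpnmb and Apoe correlated at 0.86 to 0.96 with each other, and Fabp5 at -0.53 to -0.32 with these genes.

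The genes with a pattern most like each of the 9 were ranked by Pearson correlation over the 16 arrays, group differences included. The closest of so many genes correlate highly by selection, and the ranking was not repeated without bleomycin CAV1 blocker array 1. Spp1 was followed most closely by Gusb (0.98), Lhfpl2 (0.98) and Lgmn (0.97), and Trem2 by Cd84 (0.99), Lhfpl2 (0.98) and Pld3 (0.98). Gusb and Lgmn encode lysosomal enzymes. Gpnmb was followed by Syngr1 (0.98), Ctsd (0.98) and Nek6 (0.97), and Apoe by Nek6 (0.97), Csf2rb2 (0.97) and Slc11a1 (0.97). Ctsd encodes the lysosomal protease cathepsin D and Slc11a1 a metal transporter of phagosomes.

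Cd63 was followed by Bcl2a1d (0.98), Cfi (0.98) and Brinp1 (0.98), and Lgals3 by Cd300c (0.95), Raet1e (0.93) and Lhfpl2 (0.93). Fabp5 was followed by Mreg (0.93), Pycard (0.92) and Gsta1 (0.90), Cd9 by Nol4l (0.91), Unc119 (0.88) and 6030458C11Rik (0.88), and Lpl by Mpi (0.84), Icam5 (0.83) and Itga7 (0.83). Lhfpl2 thus stood among the 3 closest for Spp1, Trem2 and Lgals3, and Nek6 for Gpnmb and Apoe.

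Genes that work with TREM2 were followed in a list of 10. With bleomycin, averaged over both blockers, 1 rose and 0 fell. It was Tyrobp, the adaptor through which TREM2 signals, which rose by 0.53 (SE 0.071, adjusted p = 0.0011) and was also called under the CAV1 blocker (0.49, adjusted p = 0.0432) and under the control blocker (0.57, 0.0174). Tyrobp averaged 14.85 ± 0.17 and 15.09 ± 0.05 in the bleomycin CAV1 and control blocker groups (SD, n = 6 each) and 14.36 ± 0.01 and 14.53 ± 0.02 in the PBS CAV1 and control blocker groups (n = 2 each). The phospholipase gene Plcg2 (0.17, adjusted p = 0.115), the sheddase gene Adam17 (0.18, 0.148) and the exchange factor gene Vav1 (0.19, 0.253) did not pass.

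Osteopontin is bound by integrins and CD44. Of 10 receptor genes, 1 rose with bleomycin, Itgav (0.34, adjusted p = 0.0379), the αv integrin subunit. The β subunit genes Itgb6 (0.52, adjusted p = 0.0510) and Itgb5 (0.34, 0.0614) and the α8 subunit gene Itga8 (-0.42, 0.0613) did not pass. Itgb6, a subunit made by epithelium, was the 1 receptor gene called between the blockers after bleomycin. It averaged 11.05 ± 0.32 with the CAV1 blocker and 10.41 ± 0.15 with the control blocker (SD, n = 6 each), a difference of 0.64 (SE 0.147, adjusted p = 0.0398).

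Of 12 measured genes of lipoprotein uptake and of the partners of apolipoprotein E, 3 rose and 0 fell with bleomycin. Msr1, a scavenger receptor for modified lipoproteins, rose by 1.08 (SE 0.144, adjusted p = 0.0011), Apoc2, the activator of lipoprotein lipase, by 0.56 (0.0446) and Apoc1 by 0.36 (0.0445). Cd36, the fatty acid and lipoprotein receptor, differed by -0.29 and did not pass (adjusted p = 0.0932). Msr1 was also called in each bleomycin comparison, at 0.99 under the CAV1 blocker (adjusted p = 0.0446) and 1.17 under the control blocker (0.0174), and Apoc2 under the control blocker (0.89, 0.0469). Between the blockers after bleomycin Msr1 was called lower with the CAV1 blocker. It averaged 7.91 ± 0.37 with the CAV1 blocker and 8.52 ± 0.16 with the control blocker (SD, n = 6 each), a difference of -0.61 (SE 0.144, adjusted p = 0.0472).

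Of 11 genes of cholesterol efflux and storage, 1 rose with bleomycin, the exporter gene Abca1 (0.70, SE 0.125, adjusted p = 0.0048), which was also called under the control blocker (0.85, 0.0255). The cholesterol hydroxylase gene Ch25h (0.40, adjusted p = 0.0957), Npc2 (0.23, 0.411) and the exporter gene Abcg1 (0.15, 0.448) did not pass. Of 10 partners of lipoprotein lipase and genes of lipolysis, 0 rose and 1 fell, Mgll (-0.26, adjusted p = 0.0118), a monoacylglycerol lipase. Lipg, the endothelial lipase, was called lower under the control blocker (-0.51, 0.0443), as was Mgll there (-0.32, 0.0437). Averaged over both blockers, Lipg (-0.31, adjusted p = 0.0513), Gpihbp1, which holds lipoprotein lipase on capillaries (-0.14, 0.261), and Lmf1, which folds it (0.15, 0.291), did not pass.

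Relatives of Fabp5 and of the tetraspanins were followed too. Of 6 other fatty acid binding proteins, Fabp1 fell by 2.22 (SE 0.370, adjusted p = 0.0034). It averaged 9.19 ± 1.03 and 8.77 ± 0.27 in the bleomycin CAV1 and control blocker groups (SD, n = 6 each), against 11.61 ± 0.37 and 10.79 ± 0.58 in the PBS CAV1 and control blocker groups (n = 2 each). Fabp2 (0.32, adjusted p = 0.0521), Fabp3 (-0.59, 0.108) and Fabp4 of adipocytes and macrophages (-0.69, 0.357) did not pass. Of 11 tetraspanins, Tspan15 fell (-0.46, adjusted p = 0.0432), and Cd53 of leukocytes (0.33, 0.0695), Tspan13 (-0.48, 0.116) and Tspan4 (0.25, 0.234) did not pass.

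Of 9 galectin genes and partners, Lgals3bp, a ligand of galectin-3, rose by 0.55 (adjusted p = 0.0174) and Lgals2 fell (-0.35, 0.0255). Lgals1 (0.44, adjusted p = 0.0832) and Lgals4 (-0.26, 0.118) did not pass. Lgals2 was also called lower with bleomycin under the CAV1 blocker (-0.62, 0.0416) and higher with the CAV1 blocker after PBS (0.75, 0.0456).

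Lysosomal genes of scar macrophages numbered 19 measured, of which 5 rose and 1 fell with bleomycin. The cathepsin genes Ctss (1.21, SE 0.180, adjusted p = 0.0022), Ctsd (0.85, 0.0134), Ctsk (0.81, 0.0116) and Ctsb (0.80, 0.0020) rose, as did the legumain gene Lgmn (0.74, 0.0024), and the galactosidase gene Gla fell (-0.29, 0.0353). Ctss, Ctsb and Lgmn were also called under the control blocker, at 1.36, 0.98 and 0.82 (adjusted p = 0.0187, 0.0153 and 0.0213). Ctsd had a lowest, median and highest value of 15.27, 16.19 and 16.67 in bleomycin CAV1 blocker arrays and 16.35, 16.58 and 16.72 in bleomycin control blocker arrays, against 14.94 and 14.94 in PBS CAV1 blocker arrays and 15.81 and 16.34 in PBS control blocker arrays. Its order of groups was that of Gpnmb, with the PBS control blocker arrays above the lowest bleomycin CAV1 blocker array.

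Of 25 other genes of scar macrophages, 8 rose and 0 fell. Mmp12, an elastase of macrophages, rose by 1.81 (SE 0.294, adjusted p = 0.0029), the lectin receptor gene Clec4d by 1.12 (SE 0.121, 2.52e-04), the growth factor gene Igf1 by 1.05 (0.0026) and the sugar phosphate carrier gene Slc37a2 by 0.89 (0.0026). Syngr1 (0.88), Clec7a (0.77), Itgax (0.70) and Anxa1 (0.51) rose as well. Clec4d was the 1 gene of this list called under the CAV1 blocker (1.25, adjusted p = 0.0095). Under the control blocker 7 were called: Mmp12 (1.75), Igf1 (1.21), Clec4d (0.99), Slc37a2 (0.94), Clec7a (0.81), Cx3cr1 (0.81) and Anxa1 (0.75). Their median difference averaged over both blockers was 0.26, and that of the lysosomal genes was 0.31.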

How the data were processed

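Whole-lung total RNA (TRIzol, 0.2 µg, RNA integrity number 9 or 10) was labelled with Cy3 and hybridised to single-colour Agilent arrays, per the labels' protocols. The authors deposited log2 intensities made with limma, per the submitters' processing notes. Background correction and scanner were not given in the sources used here, and no detection or saturation marks were used. The number of arrays limits the precision.

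Probes were named through the platform table and RefSeq accessions (29036 of 31465 named spots matched). The spot with the highest mean stood for a gene, and genes above the array's 25th percentile in at least 2 arrays were tested (20304, all 9 genes among them). A mean for each of the 4 groups was estimated from 16 arrays by lmFit and eBayes of limma 3.58.1 in R 4.3.3 (two-sided, 12 residual degrees of freedom). A gene was called at a Benjamini-Hochberg adjusted p under 0.05, within each of 6 comparisons. The comparisons share arrays. ± gives the SD between arrays, and intervals are 95%. The fit was tested on simulated data with independent noise, and only for the comparison of the blockers after bleomycin. The comparisons with PBS arrays were not checked in this way.

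The 9 genes, the partner and the marker lists were chosen with earlier results of these data known. In each partner list the 4 smallest p-values with bleomycin averaged over both blockers were named, with any gene called in any comparison, and the 3 most correlated genes per member. Some listed genes are not reported here. Alternatives covered the dim filter, spots, normalization, moderation, the arrays fitted, replicate and deposit-order blocks, marker covariates and arrays left out.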

Additional observations from a re-analysis of the deposited data

Results flagged for a closer look

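Single arrays lay far from the rest of their group for 3 of the 9 genes, by Dixon's test at the 95% level in groups of 6 arrays. Of the 18 sets of 6 values tested (9 genes in 2 groups), 4 gave such an array. Chance gives about 1 in 20 for a single set, but the genes were read on the same arrays and several moved together. The sets are therefore not separate tests, and 4 of 18 cannot be weighed against that rate. Spp1 in bleomycin CAV1 blocker array 1 was 10.28, with a gap to the next array of 0.773 of the group's range (critical value 0.625). Trem2 in the same array was 10.67 (0.688) and Apoe was 15.57 (0.630). Trem2 in bleomycin control blocker array 2 was 13.67, the highest of a narrow group (0.636).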

How the results depend on the processing

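The number of the 9 genes called with bleomycin averaged over both blockers was 7, and 6 or 7 under the alternatives run on every array without a replicate block. Those alternatives called 4.87% to 8.23% of all genes or spots. Leaving out 1 array gave 2 to 8, with 2 without either PBS CAV1 blocker array. Under the CAV1 blocker the 1 call became 2 with the 50th percentile filter or the deposit-order block, 0 with only the compared arrays, 0 with the muscle or the squamous covariate, and 0 to 7 with 1 array left out. Under the control blocker the 3 calls became 0 with either covariate or without the 5 low arrays, and 0 to 6 with 1 array left out. There 2 calls were left with trend and robust moderation (Trem2 lost, 2.23% of all genes called) and with only the compared arrays (Cd63 lost, 1.06%). The deposit-order block also left 2 (Cd63 lost, 1.97%). Between the blockers 0 of the 9 genes were called by limma after bleomycin under every alternative run, and after PBS and for the interaction 0, or 0 to 1 with 1 array left out. Where a PBS group kept a single array, its spread was taken from the other groups. The cause of these changes was not tested.

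Of all genes, 1204 were called averaged over both blockers, and 385 to 1923 with 1 array left out, the lowest without PBS CAV1 blocker array 1 and the highest without PBS control blocker array 1. Under the CAV1 blocker 105 were called, 164 with the 50th percentile filter, 175 with the deposit-order block, 10 with the muscle and 8 with the squamous covariate, 0 with only the compared arrays and 10 to 719 with 1 array left out, the highest without bleomycin CAV1 blocker array 1. Under the control blocker 489 were called, 236 with the muscle and 287 with the squamous covariate, 215 with only the compared arrays, 9 without the 5 low arrays and 91 to 4075 with 1 array left out, the highest without PBS control blocker array 1. Between the blockers after bleomycin 327 were called, 65 without the 5 low arrays and 573 with all named spots in place of genes. After PBS 63 were called, 4 with the muscle and 5 with the squamous covariate, 157 with all named spots, 3 with only the compared arrays and 34 to 4024 with 1 array left out, again the highest without PBS control blocker array 1. The interaction was called for 0 genes, and for 0 to 3011 with 1 array left out, the highest without the same array.

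The labels do not say whether samples with equal replicate numbers were paired. Bleomycin arrays of both blockers with the same number correlated in their deviations at -0.69 to 0.35, and 2 of 6 correlated best with their own number. These values cannot settle it, because arrays also differed in tissue content. With the replicate block 0 of the 9 genes were called in any comparison (Spp1 averaged over both blockers 2.39, adjusted p = 0.191). Of all genes it called 9 averaged over both blockers, 0 under the CAV1 blocker, 1 under the control blocker, 212 between the blockers after bleomycin and 14 after PBS.

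No difference that changed sign passed the test before or after the change. Lpl between the blockers after bleomycin was -0.035 with the mean of its spots, -0.059 without the 5 low arrays and -0.033 to 0.11 with 1 array left out. Cd9 between the blockers after PBS was -0.021 with the muscle and -0.081 with the squamous covariate, and -0.18 to 0.26 with 1 array left out, where Cd63 ranged from -0.22 to 0.12. The interaction with the muscle covariate was 0.096 for Apoe, 0.22 for Lgals3 and 0.51 for Spp1, and with the squamous covariate 0.044 for Cd9, 0.17 for Lgals3 and 0.25 for Spp1. With 1 array left out it ranged from -0.51 to 0.28 for Apoe, -0.32 to 0.12 for Cd9, -0.12 to 0.0079 for Lgals3 and -0.36 to 0.41 for Spp1. In the bleomycin comparisons with 1 array left out, Cd9 ranged from -0.041 to 0.18 averaged over both blockers, -0.015 to 0.056 under the CAV1 blocker and -0.10 to 0.34 under the control blocker. Fabp5 ranged from -0.22 to 0.47 under the control blocker, and at both ends a single PBS control blocker array was left.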
